A study of Rattus norvegicus with 16 samples.

Results

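Crabp1 (ENSRNOG00000023633) and Cyp26b1 (ENSRNOG00000015076) are a pair of genes that handle retinoic acid inside the cell, and their read counts were followed over the CA1, CA2, CA3 and DG subfields of the rat hippocampus. They are 2 of the 32883 Ensembl genes in the count table, and both were among the 17174 genes with more than 10 counts over all libraries. Both were chosen from these same data: Crabp1 because the study lists it as a CA1 marker and Cyp26b1 because it lists it as a CA3 marker, each by a log2 fold change above 2 against every other subfield. Their subfield differences are therefore given as a description, with standard errors (SE) and 95% intervals but without p-values.

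The libraries came from male Wistar rats aged 3 months, 4 rats in all, and the labels give no treatment or genetic change for any group. Laser capture microdissection, in which a laser frees a chosen cell layer from a stained section, was used to collect the pyramidal layer of CA1, of CA2 and of CA3 and the granular layer of DG, from sections stained with cresyl violet. Total RNA of each layer was sequenced as 1 library per subfield and replicate number, which gave 4 columns of counts per subfield with totals from 3216512 to 11933279. A captured layer is bulk tissue that also holds glia, vessels and interneurons, so fewer expressing cells and less RNA per cell cannot be told apart in these values.

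The counts of CA2 replicates 2 and 4 differed about as much as sampling noise (chi-square per degree of freedom 1.0, chi-square test p = 0.456). Those of DG replicates 2 and 4 differed slightly more than this noise (1.04, chi-square test p = 0.00176). The other 22 pairs within a subfield had values of 2.80 to 43.5. The CA2 pair and the DG pair were each summed and counted as 1 sample. CA1 and CA3 thus had 4 independent libraries each (n = 4), while CA2 and DG had 3 each (n = 3). Levels are given as CPM, the counts of a gene scaled to a common library size with TMM factors, which corrects for differences in library composition. The labelled layers were checked with marker genes that have an identifier in the study's marker lists, which were themselves chosen on these samples. The summed CPM of each marker list was highest in its own subfield in every library: 2 CA1 markers (Wfs1 and Pex5l) summed to 965.6 to 1068 in CA1 and to at most 239.1 elsewhere, and 3 CA3 markers (Fermt1, Gjd2 and Vgll3) summed to 38.7 to 48.7 in CA3 and to at most 4.70 elsewhere. Of the 4 CA2 markers (Amigo2, Cacng5, Ccdc3 and Ntf3), Ntf3 had a higher mean in DG (41.1 CPM) than in CA2 (10.2 CPM), so it was no CA2 marker by itself. No glial, vascular or interneuron marker could be matched to an identifier, so the share of those cells was not tested.

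Retinoic acid is made from vitamin A in the cell by oxidation of retinol to retinaldehyde and then to the acid, and it controls transcription by binding nuclear receptors of the RAR and RXR families. Crabp1 encodes cellular retinoic acid binding protein 1, which holds retinoic acid in the cytoplasm, away from those receptors, and can present it to the enzymes that break it down. Cyp26b1 encodes a cytochrome P450 that oxidises retinoic acid to inactive products. In the adult hippocampus retinoic acid signalling is known for its part in synaptic plasticity and in the birth of granule neurons.

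The 250 bases before each gene's start are printed here because they are the sequences in which this pair of genes can be set side by side. They were taken from RefSeq on the build GRCr8, a later build than the one the reads were aligned to, and both genes were matched by symbol. Capitals mark every GGGCGG box, the core that Sp1-like factors are known to bind, on either strand (CCGCCC where it lies on the other strand).
Crabp1, chr8:64047181-64047430, plus strand: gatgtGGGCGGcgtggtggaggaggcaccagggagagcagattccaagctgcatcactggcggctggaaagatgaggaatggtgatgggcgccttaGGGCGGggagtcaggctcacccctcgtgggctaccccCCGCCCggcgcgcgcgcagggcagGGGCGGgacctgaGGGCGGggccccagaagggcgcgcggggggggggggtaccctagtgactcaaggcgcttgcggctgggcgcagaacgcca
Cyp26b1, chr4:118616177-118616426, minus strand: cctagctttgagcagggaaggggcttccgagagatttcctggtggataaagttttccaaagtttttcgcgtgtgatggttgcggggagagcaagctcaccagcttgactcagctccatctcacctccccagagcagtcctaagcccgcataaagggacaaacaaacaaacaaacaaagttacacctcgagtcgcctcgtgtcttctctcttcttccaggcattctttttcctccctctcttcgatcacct
The stretch before Crabp1 had 71.6% G and C, 21 CG pairs and 5 GGGCGG boxes, while the stretch before Cyp26b1 had 50.4% G and C, 9 CG pairs and 0 boxes. Over 33469 RefSeq promoters of the same length the median was 51.2% G and C and 5 CG pairs, and 30.5% held a box. Neither stretch held a TATAAA motif (in 12.9% of all promoters) or the hexamer AGGTCA that retinoic acid receptors are known to bind, nor did they hold its variant AGTTCA, its variant GGGTCA or its variant GGTTCA on either strand (any of these hexamers in 39.1% of all promoters), which says only that these letters are not in this window. No other RefSeq gene overlapped either gene.

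Crabp1 was highest in CA1, and its mean was lower in each of CA2, CA3 and DG in that order, on few counts. The 4 CA1 libraries held 45, 28, 55 and 20 counts of Crabp1 in replicates 1 to 4, that is 4.64, 2.58, 6.37 and 6.19 CPM. The CA2 libraries held 5 counts in replicate 1, 14 in the summed replicates 2 and 4 and 12 in replicate 3, that is 0.782, 1.44 and 1.24 CPM. Every CA1 library was thus above every CA2 library, with CA1 replicate 2 the lowest of its subfield. In CA3, Crabp1 had 4, 8, 6 and 4 counts, or 0.494, 0.691, 0.634 and 0.648 CPM. In DG it had 1 count in replicate 1, 6 in the summed replicates 2 and 4 and 3 in replicate 3, or 0.182, 0.390 and 0.359 CPM. The granule cell layer had the lowest mean of the 4 subfields, but the counting intervals of its libraries overlapped those of the CA3 libraries.

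The mean level of Crabp1 was 4.95 ± 1.76 CPM in CA1 (SD, n = 4), 1.15 ± 0.339 in CA2 (SD, n = 3), 0.617 ± 0.0853 in CA3 (SD, n = 4) and 0.310 ± 0.112 in DG (SD, n = 3). The CPM values of no 2 subfields overlapped in Crabp1, so the order CA1, CA2, CA3, DG held library by library. The counting intervals of the CA2, CA3 and DG libraries did overlap between subfields, and the share of all genes with such an order was not computed. Nothing is therefore read from the order below CA1. All CA1 libraries being above all others is a pattern that 570 of the 17174 genes showed (3.32%). Crabp1 was chosen for its high CA1 level in these samples, so nothing is read from this pattern. The lower steps of the order rest on few reads: 31 counts in CA2, 22 in CA3 and 10 in DG, with exact Poisson 95% intervals of 21.1 to 44, 13.8 to 33.3 and 4.80 to 18.4. Of all 211 counts of Crabp1, 70.1% were in CA1.

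Cyp26b1 was highest in CA3, and the other 3 subfields could not be set in an order. The CA3 libraries held 34, 52, 69 and 40 counts in replicates 1 to 4, or 4.20, 4.49, 7.30 and 6.48 CPM. The CA1 libraries held 3, 13, 9 and 2 counts, or 0.309, 1.20, 1.04 and 0.619 CPM. Each CA3 library was above each CA1 library, and the CA1 values were spread more widely relative to their mean than those of any other subfield. In CA2, Cyp26b1 had 8, 12 and 11 counts in replicate 1, the summed replicates 2 and 4 and replicate 3, or 1.25, 1.24 and 1.13 CPM. In DG it had 4, 20 and 10 counts in the same order of replicates, or 0.729, 1.30 and 1.20 CPM. The values of CA1, CA2 and DG overlapped pair by pair.

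The mean level of Cyp26b1 was 5.62 ± 1.51 CPM in CA3 (SD, n = 4), 1.21 ± 0.0646 in CA2 (SD, n = 3), 1.08 ± 0.304 in DG (SD, n = 3) and 0.792 ± 0.404 in CA1 (SD, n = 4). Every CA3 library was above every library of the other subfields, a pattern that 498 of the 17174 genes showed (2.90%). Cyp26b1 was chosen for its high CA3 level, so nothing is read from this pattern either. Of all 287 counts of Cyp26b1, 67.9% were in CA3. Neither gene was abundant where it was highest: the mean CPM of Crabp1 in CA1 was above that of 40.4% of the genes tested (median of all genes 10.3 CPM), and that of Cyp26b1 in CA3 was above 42.2% (median 9.92 CPM).

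**Figure D1:**
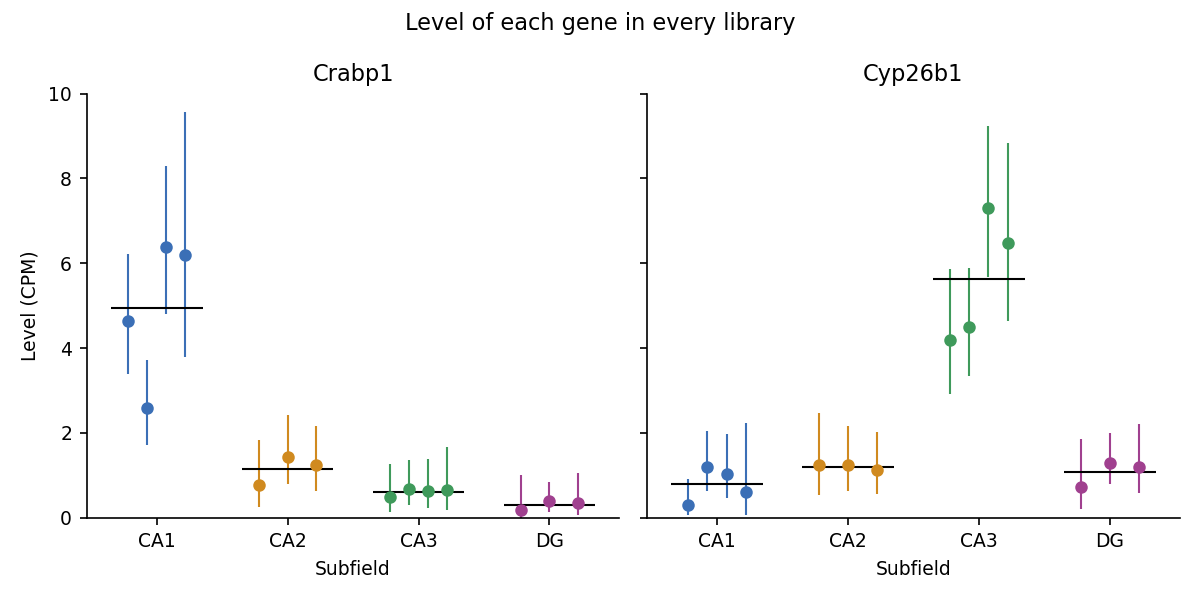
The level of Crabp1 (left) and Cyp26b1 (right) in CPM is plotted for every library by subfield, with exact Poisson 95% intervals of the count as bars and the subfield mean as a black line. The CA1 libraries of Crabp1 lie between 2.58 and 6.37 CPM and the CA3 libraries of Cyp26b1 between 4.20 and 7.30 CPM, each above all other libraries of that gene.

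In edgeR's quasi-likelihood fit across all genes, the log2 fold change of Crabp1 was 2.0 (SE 0.35, 95% interval 1.32 to 2.68) in CA1vsCA2, where the first subfield is set over the second. It was 2.92 (SE 0.35, interval 2.23 to 3.6) in CA1vsCA3 and 3.77 (SE 0.43, interval 2.93 to 4.60) in CA1vsDG. CA1 thus exceeded the other subfields by 4.0-fold, 7.55-fold and 13.6-fold. Between the subfields with few reads, the log2 fold change was 0.92 (SE 0.44, interval 0.06 to 1.77) in CA2vsCA3, 1.77 (SE 0.52, interval 0.75 to 2.78) in CA2vsDG and 0.85 (SE 0.54, interval -0.21 to 1.92) in CA3vsDG. The last of these intervals included 0, although the CA3 and DG libraries did not overlap. CA1vsCA2 shares its CA1 libraries with CA1vsCA3 and CA1vsDG, so these values are not independent of each other.

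For Cyp26b1, the log2 fold change was -2.74 (SE 0.33, interval -3.38 to -2.09) in CA1vsCA3, -2.20 (SE 0.34, interval -2.86 to -1.54) in CA2vsCA3 and 2.28 (SE 0.33, interval 1.63 to 2.94) in CA3vsDG. CA3 thus exceeded CA1 by 6.66-fold, CA2 by 4.60-fold and DG by 4.87-fold. The differences that leave CA3 out were smaller, at -0.53 (SE 0.43, interval -1.37 to 0.30) in CA1vsCA2, -0.45 (SE 0.42, interval -1.28 to 0.37) in CA1vsDG and 0.08 (SE 0.42, interval -0.75 to 0.91) in CA2vsDG. All of these intervals included 0, and their widths leave room for differences of up to 1.37 on the log2 scale. The share of all tested genes with a Benjamini-Hochberg adjusted p under 0.05 in edgeR's test was 14.3% in CA1vsCA2, while it was 24.8% in CA1vsCA3 and 7.65% in CA2vsCA3. With DG as the second subfield that share was 29.4% for CA1, 35.4% for CA2 and 40.2% for CA3, so that differences between these layers were common among all genes. In size, 189 of the 17174 genes had a higher log2 fold change than Crabp1 in CA1vsCA3, and 217 had a lower one than Cyp26b1. Both genes were chosen for a large log2 fold change in this comparison among others, so nothing is read from these places.

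**Figure D2:**
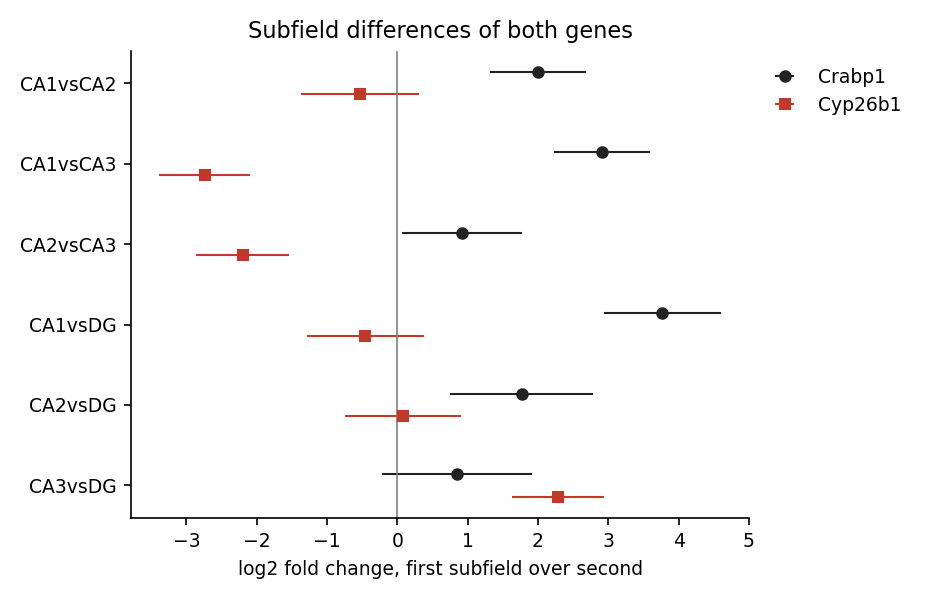
The log2 fold change of the first subfield over the second is plotted for the 6 comparisons, for Crabp1 (black circles) and Cyp26b1 (red squares), with 95% intervals from the fit across all genes as bars. In CA1vsCA3 the genes lie on opposite sides of 0, at 2.92 and -2.74, and in CA1vsDG Crabp1 is at 3.77 while the interval of Cyp26b1 includes 0.

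Set against each other within a library, the counts of the genes give a ratio in which depth and scaling cancel, although gene length and capture differ between the genes and the ratio is no comparison of their levels. In CA1, Crabp1 made up 93.8%, 68.3%, 85.9% and 90.9% of the counts of both genes in replicates 1 to 4. In CA3 it made up 10.5%, 13.3%, 8.0% and 9.09%. No CA1 interval (exact Clopper-Pearson, 95%) came below 51.9% and no CA3 interval went above 24.8%. Each of the 4 CA1 libraries was thus on the other side from each of the 4 CA3 libraries. This separation was largely fixed by choosing Crabp1 for CA1 and Cyp26b1 for CA3, so nothing is read from it. CA2 lay between CA1 and CA3, with 38.5% in replicate 1, 53.8% in the summed replicates 2 and 4 and 52.2% in replicate 3. DG had 20%, 23.1% and 23.1% in the same order of replicates, on only 5, 26 and 13 counts of both genes.

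The mean share of Crabp1 was 84.7% ± 11.4 in CA1 (SD, n = 4), 48.2% ± 8.44 in CA2 (SD, n = 3), 22.1% ± 1.78 in DG (SD, n = 3) and 10.2% ± 2.31 in CA3 (SD, n = 4). The order of subfields by this share, CA1, CA2, DG, CA3, differed from the order by the Crabp1 level, in which DG was last. The DG shares were above all CA3 shares, but the interval of each DG library overlapped those of the CA3 libraries, so CA3 and DG were not told apart in single libraries at this depth. The intervals cover counting error only.

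**Figure D3:**
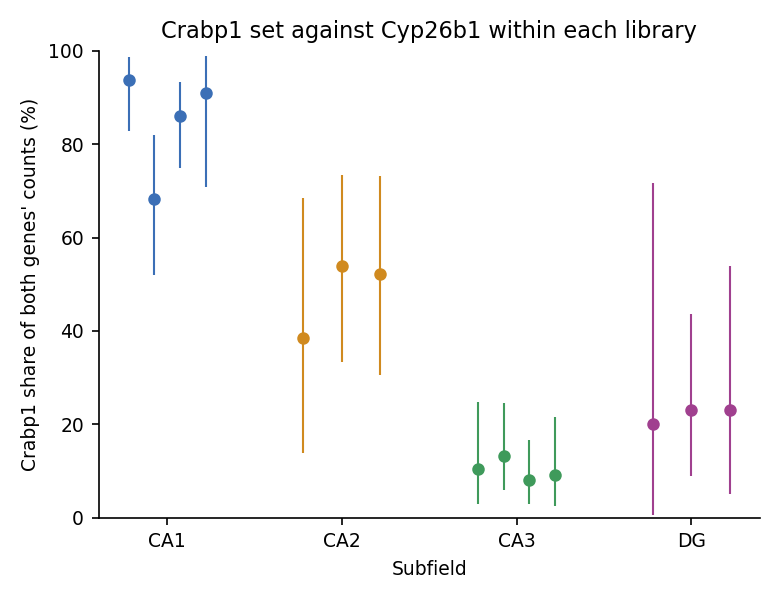
The share of Crabp1 in the counts of Crabp1 plus Cyp26b1 is plotted in percent for every library by subfield, with exact Clopper-Pearson 95% intervals as bars. The CA1 libraries lie between 68.3% and 93.8% and the CA3 libraries between 8.0% and 13.3%, with CA2 and DG between them.

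CA1 and CA3 libraries with the same replicate number were also compared. Crabp1 was 9.39, 3.73, 10.1 and 9.54 times as high in CA1 as in CA3 in replicates 1 to 4, and no counting interval of these ratios came below 1.66. Cyp26b1 was 13.6, 3.75, 6.99 and 10.5 times as high in CA3 as in CA1, and no interval came below 2.02. Both genes differed in opposite directions in 4 of 4 numbers, and both ratios were smallest in replicate 2. The directions were largely fixed by choosing Crabp1 for CA1 and Cyp26b1 for CA3, so nothing is read from them. With the replicate number as a block in the fit, the log2 fold change in CA1vsCA3 was 2.88 (SE 0.32) for Crabp1 and -2.67 (SE 0.32) for Cyp26b1.

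**Figure D4:**
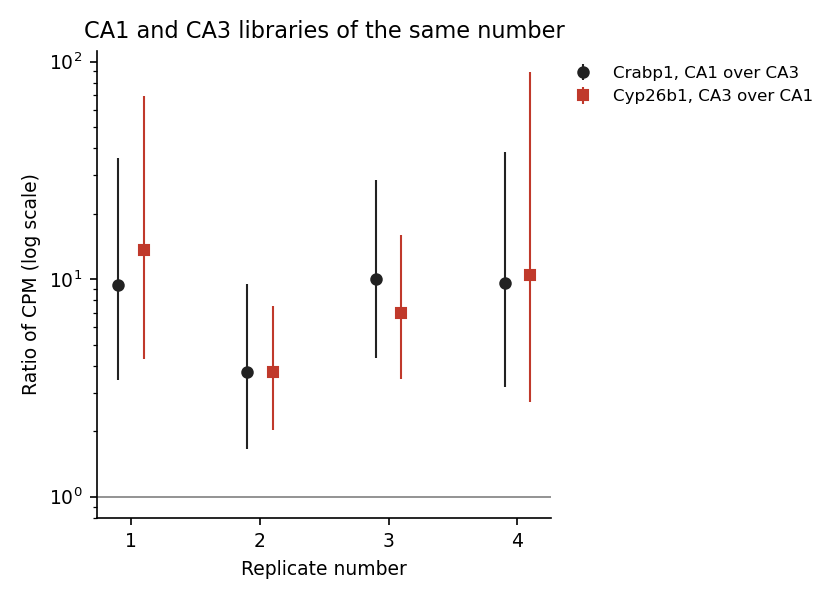
The ratio of CPM between CA1 and CA3 libraries of the same replicate number is plotted on a log axis, as CA1 over CA3 for Crabp1 (black circles) and CA3 over CA1 for Cyp26b1 (red squares), with 95% counting intervals as bars and a grey line at 1. All 8 ratios are above 1, and those of replicate 2, at 3.73 and 3.75, are the lowest of each gene.

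The libraries numbered 2 were also the highest of CA1 and of CA3 in markers of the other of these subfields. CA3 replicate 2 held 176 CPM of the 2 CA1 markers, against 48.4 to 60.4 in the other CA3 libraries. Wfs1 made up most of this gap, at 106.4 CPM against 8.65 to 13.8 in the others, while Pex5l was at 69.6 against 39.8 to 46.9. The Crabp1 level of CA3 replicate 2, 0.691 CPM, was close to the 0.494 to 0.648 of the others. CA1 replicate 2 held 4.70 CPM of the 3 CA3 markers, against 1.24 to 2.79 in the other CA1 libraries, a gap within Dixon's limit for a sample far from the others, and 32.8 CPM of the 4 CA2 markers, against 9.70 to 26.8. It had both the lowest Crabp1 and the highest Cyp26b1 of CA1, although its Cyp26b1 interval overlapped those of the other CA1 libraries. Its CA1 markers were not low, at 1041 CPM, against 965.6 to 1068 in the others. Without CA1 replicate 2, the log2 fold change in CA1vsCA3 was 3.16 for Crabp1 and -3.07 for Cyp26b1, and without CA3 replicate 2 it was 2.99 and -2.84.

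The level of each gene outside its highest subfield was set beside that of the markers of the same subfield. Crabp1 had 23.3% of its CA1 mean in CA2, 12.5% in CA3 and 6.28% in DG. The summed CA1 markers had 9.80% to 23.5% of their CA1 mean in the CA2 libraries, 4.77% to 17.3% in CA3 and 3.14% to 4.33% in DG, so the Crabp1 values lay within the range of the summed markers in CA2 and CA3 and above it in DG. In CA3 this rests on replicate 2 alone, since the other 3 CA3 libraries held 4.77% to 5.94%, below the 12.5% of Crabp1. As means over libraries, the summed CA1 markers had 16.6% in CA2, 8.41% in CA3 and 3.68% in DG, each below the Crabp1 mean. The 2 markers also differed from each other: Pex5l had 23.0% of its CA1 mean in CA2, 14.8% in CA3 and 7.43% in DG, close to Crabp1, while Wfs1 had 13.5%, 5.24% and 1.82%, below Crabp1 in each. Cyp26b1 had 14.1% of its CA3 mean in CA1, 21.5% in CA2 and 19.1% in DG. The summed CA3 markers had 2.91% to 11% in the CA1 libraries, 9.18% to 10.2% in CA2 and 2.57% to 8.08% in DG. The mean of Cyp26b1 was above this range in each of these subfields, but its single libraries were not set against it. In CA1 those libraries ran from 0.31 to 1.20 CPM, beside the CA3 mean of 5.62 CPM. Of the single markers Gjd2 came closest, with 9.10% of its CA3 mean in CA1, 15.05% in CA2 and 6.12% in DG. The part of neighbouring tissue in either gene's level was not tested.

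A list of 78 genes of the retinoid pathway (uptake, oxidation, binding, breakdown, receptors and targets) was drawn up, this pair of genes included. Of these, 74 could not be matched to an identifier and were not analysed here. Besides the pair, the remaining 2 genes are enzymes that act before or beside retinoic acid. Aox3 is an aldehyde oxidase of the family that can oxidise retinaldehyde, and Cyp1b1 is a cytochrome P450 that can oxidise retinol and retinaldehyde. Both have an identifier because the study lists them as markers of CA1 and of CA2, so their differences are not independent evidence of a direction. Comparisons with the subfield that chose each gene are therefore given without p-values.

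Aox3 was highest in CA1, as Crabp1 was. The CA1 libraries held 1.03, 3.50, 1.62 and 2.78 CPM of Aox3, and no library of the other subfields went above 0.619 CPM. The mean was 2.23 ± 1.11 CPM in CA1 (SD, n = 4), 0.309 ± 0.309 in CA2 (SD, n = 3), 0.263 ± 0.228 in CA3 (SD, n = 4) and 0.451 ± 0.129 in DG (SD, n = 3). In CA1vsCA2 the log2 fold change was 2.63 (SE 0.65), with 2.91 (SE 0.61) in CA1vsCA3 and 2.25 (SE 0.62) in CA1vsDG. With the replicate number as a block and the repeated columns left out, the value in CA1vsDG was 1.39 (SE 0.74), and without the summed DG replicates 2 and 4 it was 2.06 (SE 0.76). Within CA1, replicate 2 was highest in Aox3, the opposite of its place in Crabp1.

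Cyp1b1 was highest in CA2, a subfield in which neither Crabp1 nor Cyp26b1 was at its highest. The CA2 libraries held 138.1, 112.9 and 156.2 CPM of Cyp1b1 in replicate 1, the summed replicates 2 and 4 and replicate 3. The mean was 135.7 ± 21.7 CPM in CA2 (SD, n = 3), 21.9 ± 6.12 in CA3 (SD, n = 4), 19.2 ± 10.1 in CA1 (SD, n = 4) and 1.21 ± 0.542 in DG (SD, n = 3). CA1 and CA3 overlapped in Cyp1b1, with a log2 fold change of -0.16 (SE 0.29, adjusted p from edgeR 0.740), while the log2 fold change was -2.79 (SE 0.29) in CA1vsCA2 and 2.63 (SE 0.29) in CA2vsCA3. Against DG, Cyp1b1 was higher in all pyramidal layers, by 3.98 (SE 0.46) in CA1vsDG, 6.77 (SE 0.45) in CA2vsDG and 4.14 (SE 0.46) in CA3vsDG on the log2 scale, with adjusted p from edgeR of 6.53e-07 in CA1vsDG and 2.70e-07 in CA3vsDG, which did not choose the gene.

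Calls at an adjusted p under 0.05 in edgeR are given only for comparisons that leave out the subfield that chose the gene. Cyp1b1 passed as higher in CA1vsDG (all genes 29.4%) and in CA3vsDG (40.2%), and did not pass in CA1vsCA3 (24.8%). Aox3, with few counts outside CA1, did not pass in CA2vsCA3 (7.65%), CA2vsDG (35.4%) or CA3vsDG (40.2%). Its adjusted p from edgeR was 0.930, 0.769 and 0.553 in these. Both genes could be named only as markers of a subfield, so the outcome of the other comparisons was largely fixed by that choice and is not counted.

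Genes with a profile like that of each member were ranked by Pearson's r of log2 CPM over the 14 libraries, among 13618 genes with at least 10 counts in at least 3 libraries. The libraries share their subfields and fall into separate groups, so r mostly measures whether a gene is high in the same subfield, and it is given as a description. The 5 genes with a symbol most like Crabp1 were Pex5l (r = 0.97), which encodes a subunit of the HCN channel complex, Gabrr2 (0.96), a GABA receptor subunit, RGD1563354 (0.95), Ldb2 (0.94), a cofactor of LIM-domain proteins, and Cdh6 (0.94), a cadherin. Between 1 and 21 genes without a symbol ranked above each of them. Their mean levels in CA1 were far apart, from 14.9 CPM for Gabrr2 to 337.9 CPM for Pex5l, so the likeness is one of profile and not of level.

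The 5 genes most like Cyp26b1 were Col8a2 (r = 0.97), a collagen chain, Fxyd7 (0.93), a regulator of the sodium-potassium pump, Vgll3 (0.91), a transcription cofactor, Fermt1 (0.91), an integrin activator, and Bhlhe23 (0.90), a transcription factor. All of them were highest in CA3, from 2.77 ± 1.38 CPM for Fermt1 (SD, n = 4) to 74.9 ± 8.99 CPM for Fxyd7 (SD, n = 4). Col8a2 ranked first of all genes over the 14 libraries, but 13th with all 16 columns (r = 0.89), where Bhlhe23 led the named genes. Symbols were at hand only for genes of the study's marker lists, so genes of other profiles could not be named. Between Crabp1 and Cyp26b1 themselves r was -0.48.

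**Figure D5:**
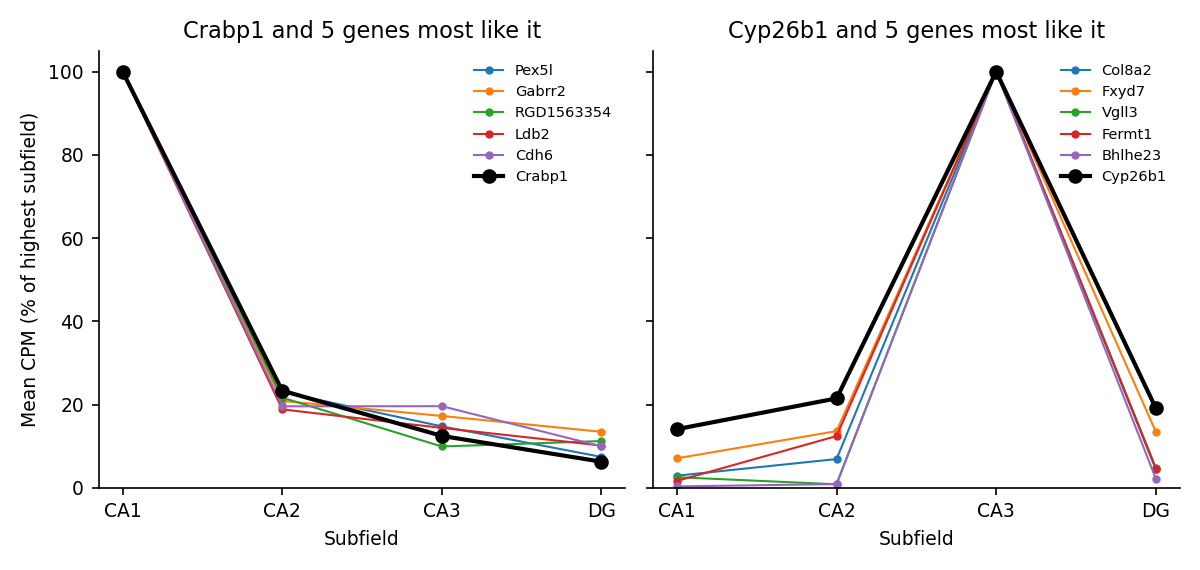
The mean CPM of each subfield is plotted as a percent of the highest subfield for Crabp1 and the 5 genes most like it (left) and for Cyp26b1 and the 5 genes most like it (right), with lines only joining the values of 1 gene. Crabp1 (black) has 23.3% of its CA1 mean in CA2 and 6.28% in DG, just above and below the other lines there, and lies among them in CA3, while Cyp26b1 (black) has 14.1%, 21.5% and 19.1% of its CA3 mean in CA1, CA2 and DG and lies above the other lines there.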

How the data were processed

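Laser-captured CA1, CA2, CA3 and DG layers of 4 rats were sequenced by the authors with a stranded total RNA kit, and the reads were aligned with STAR to Rnor6. The authors deposited raw counts per Ensembl gene for 16 columns. The counting program and its use of strand are not given in the sources used here. The deposited log2 fold changes, p-values and adjusted p-values of 6 DESeq2 comparisons were not used.

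Columns were assigned by name. Genes with more than 10 summed counts were fitted with edgeR 4.0.16 (limma 3.58.1, R 4.3.3), with TMM and 1 coefficient per subfield, and quasi-likelihood F-tests were adjusted by Benjamini-Hochberg over 17174 genes. The SE is the log2 fold change over the square root of F. Intervals are 95% and cover counting error only where they are Poisson or binomial. Log2 CPM for likeness had a prior count of 2. The tests were tried on simulated data first. Python 3.11.15, pandas 2.3.3, numpy 2.4.6, scipy 1.17.1 and matplotlib 3.10.9 did the rest.

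The genes, the lists and the rule for named genes (the pair, called retinoid genes and the 5 most like genes with a symbol) were chosen with earlier results of these data known. Symbols came from 288 identifiers in the study's marker lists, and 1 planned CA1 marker is not reported here. For CA1 and CA3, deviations from the subfield mean had r of 0.121 to 0.702 between samples with the same number (5000 genes, 4 pairs). The r of 0.121 was in number 3, where the CA1 sample was most like CA3 number 4. Labels of the same number share a prefix. The number was used as a block only as an alternative. No label says that a number is a rat, so p-values measure the spread between these samples. Alternatives were median-of-ratios size factors, DESeq2 1.42.0, other filters, all 16 columns, replicate blocks, fits to 2 subfields and leaving out each library.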

Additional observations from a re-analysis of the deposited data

Results flagged for a closer look

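In groups of 4, a sample was far from the others when its gap to the nearest was more than 0.829 of the whole range. This is Dixon's 95% limit, which chance meets in about 1 in 20 groups of normal values. Of 40 groups 6 were past it. The groups share libraries and some hold mostly 0 counts, so this number is not set against that rate. The ratio of Crabp1 in CA1 to CA3 libraries of the same number was 3.73 in replicate 2 and 9.39 to 10.1 in the others. The CA1 markers summed to 176 CPM in CA3 replicate 2 and to 48.4 to 60.4 in the other CA3 libraries. The CA2 markers summed to 23.7 CPM in CA3 replicate 2 and to 26.9 to 27.1 in the others. Cyp1b1 was at 12.7 CPM in CA3 replicate 1 and at 24.5 to 25.7 in the others. In CA1, Fermt1 was at 0.184 CPM and Bhlhe23 at 0.103 CPM in 1 library each, which held 2 counts and 1 count, with 0 in the other 3.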

How the results depend on the processing

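Under each of 8 alternatives and without each of 14 libraries, the log2 fold changes of Crabp1 in CA1vsCA2, CA1vsCA3 and CA1vsDG and of Cyp26b1 in CA1vsCA3, CA2vsCA3 and CA3vsDG kept their direction and moved by less than 1 SD between replicates. The replicate block gave 2.03 for Crabp1 in CA1vsCA2 with all 16 columns and 2.35 with the repeated columns left out, and 3.75 and 4.12 in CA1vsDG. Over all 24 pairs of same-numbered samples r was -0.172 to 0.773, so the number was not taken to pair CA2 and DG samples. Not every sample correlated best with its own number. In the comparisons that leave out the subfield that chose the gene, no call on Aox3 or Cyp1b1 changed in any of the 22 settings. Of the 5 genes most like Cyp26b1, 3 were shared with a prior count of 0.5 and 4 with all 16 columns, against 4 and 5 for Crabp1.

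The level of Crabp1 in CA1 was 4.47 to 5.73 CPM without single libraries and that of Cyp26b1 in CA3 5.06 to 6.09. The share of Crabp1 in CA1 was 81.7% to 90.2%. Depth limits the low subfields most: the DG libraries held 10 counts of Crabp1 in all.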
